A study of Mus musculus with 3 samples.

Results

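The heat shock chaperones described here are 9 of the 27998 genes in the count tables: Cryab, Hspb1, Hspa1a, Hspa1b, Hspa5, Hspa8, Hsp90aa1, Hsp90ab1 and Dnajb1. They were chosen by name, as rows of the tables, with earlier results of these data known, among them that Cryab was higher in astroglia of the mutants. All values below are therefore descriptions. All 9 had an entry in each library.

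Chaperones bind proteins that are unfolded or being made and keep them from clumping. Small heat shock proteins such as CRYAB and HSPB1 hold unfolded proteins without using ATP, HSP70 proteins fold them in cycles driven by ATP and started by J-domain partners such as DNAJB1, and HSP90 proteins finish the folding of kinases and receptors. Some of these genes, Hspa1a and Hspa1b above all, are switched on by heat shock factor 1 when cells are heated or otherwise stressed, others are made at all times, and Hspa5 serves the endoplasmic reticulum. In the brain, CRYAB is known from glial cells, where it accumulates in astrocytes in Alexander disease together with GFAP.

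Mouse dorsal cortex was taken at postnatal day 2, after FlashTag, a dye that labels cells dividing at the ventricle, had been injected into the lateral ventricle at embryonic day 18. Papain-dissociated cells positive for the red protein tdTomato were sorted and profiled with droplet 10x Genomics libraries, 1 for each of 3 genotypes. The hGFAP-Cre mutant carried hGFAP-Cre with the double conditional knockout of Map2k1 and Map2k2 (Map2k1/2-dcko). The Emx1-Cre mutant carried Emx1-Cre with the same double knockout. The control carried floxed Map2k1 and Map2k2 and is given as WT under genotype. Map2k1 and Map2k2 encode MEK1 and MEK2, the kinases that activate ERK, and the study asks how ERK and other signals set the fate of cortical progenitors. Cre under the human GFAP promoter acts in radial glia from mid-gestation, and Cre from the Emx1 gene acts in dorsal forebrain progenitors from the start of neurogenesis. The allele that carries tdTomato, the number of pups per library and their sex are not given in the sources used here.

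The libraries held 13139 barcodes with 89917586 UMIs (molecules counted once) in the hGFAP-Cre mutant, 13214 barcodes with 84016524 UMIs in the Emx1-Cre mutant and 11886 barcodes with 85480826 UMIs in the control. The lowest barcode had 3065, 2644 and 500 UMIs in the same order, so the deposited control barcodes reached to lower depth. The filter on genes and mitochondrial share kept 13135, 13199 and 9961 barcodes. After doublets were removed as well, 11991, 12191 and 9519 cells remained. Between 43 and 54 barcodes were shared by any 2 libraries, at most 0.411% of a library. Clustering gave 29 clusters, of which 26 were named by their markers in 11 classes and 3 stayed unnamed. There is 1 library per genotype, so no difference has a replicate, and none was tested or given a p-value. Levels are given as CPM, the usual scaled share of a gene among all UMIs summed over a class in a library, with exact Poisson 95% intervals that cover counting error only. Ratios are log2 of mutant over control with 5 CPM added to both, and a gene is called higher or lower at 1.5-fold when it reached 10 CPM in either library. Sex cannot be told apart from genotype, since Xist was at 0.958, 0.122 and 1462.3 CPM in the hGFAP-Cre, Emx1-Cre and control libraries. Map2k1 was at 16.3, 13.9 and 16.6 CPM, but tags from the 3' end need not lie in the deleted part and check nothing.

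The astroglia-like class was the main one for Cryab, and its label was checked first. All 12 astroglia markers, such as Slc1a3 and Aldoc, were at 10 CPM or more in each library, and they summed to 24679, 40463 and 36585 CPM in the hGFAP-Cre mutant, the Emx1-Cre mutant and the control. No microglia marker of 8 reached 10 CPM there in any library. Of 10 ependymal markers, 6, 4 and 2 reached 10 CPM, with sums of 354.6, 88.3 and 36.8 CPM, and 0, 0 and 3 of them were at 0. Different clusters make up most of the class in the 3 libraries. Cluster 4 held 1914 of the 3208 hGFAP-Cre cells and cluster 13 another 1048, cluster 2 held 1878 of the 2052 Emx1-Cre cells, and clusters 10 and 24 held 1391 and 496 of the 2111 control cells.

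The promoters of the stress-inducible pair, of Hspb1 and of the endoplasmic reticulum member are shown because these genes are known to be switched on by stress through such elements, while their levels below are set beside that of Cryab. RefSeq promoters on GRCm38.p6, from 250 bases before to 50 bases after the start, matched 5 of the 9 genes. Cryab, Hspa8, Hsp90aa1 and Hsp90ab1 are named only. Capitals mark the pair of inverted heat shock factor units GAANNTTC in Hspa1a, Hspa1b and Hspb1, and the endoplasmic reticulum stress element in Hspa5, CCAAT and CCACG held apart by 9 bases.
Hspa1a promoter (chr17:34972107-34972406, minus strand): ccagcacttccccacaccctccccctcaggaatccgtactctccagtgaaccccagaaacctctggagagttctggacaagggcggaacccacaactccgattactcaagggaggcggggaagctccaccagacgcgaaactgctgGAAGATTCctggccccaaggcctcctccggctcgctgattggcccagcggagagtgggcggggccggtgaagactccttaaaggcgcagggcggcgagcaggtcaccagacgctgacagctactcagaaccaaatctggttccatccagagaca
Hspa1b promoter (chr17:34959189-34959488, minus strand): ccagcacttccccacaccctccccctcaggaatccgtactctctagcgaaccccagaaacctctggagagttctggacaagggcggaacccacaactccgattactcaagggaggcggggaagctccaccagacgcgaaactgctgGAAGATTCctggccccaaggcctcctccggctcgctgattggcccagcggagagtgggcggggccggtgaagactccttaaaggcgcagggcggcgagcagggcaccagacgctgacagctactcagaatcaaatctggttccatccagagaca
Hspb1 promoter (chr5:135887669-135887968, plus strand): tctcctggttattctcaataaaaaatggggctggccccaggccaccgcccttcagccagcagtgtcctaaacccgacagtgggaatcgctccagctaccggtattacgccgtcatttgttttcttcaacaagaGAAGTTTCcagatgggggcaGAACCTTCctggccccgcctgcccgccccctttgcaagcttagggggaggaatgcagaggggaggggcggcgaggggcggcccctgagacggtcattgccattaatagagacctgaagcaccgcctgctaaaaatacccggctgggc
Hspa5 promoter (chr2:34771840-34772139, plus strand): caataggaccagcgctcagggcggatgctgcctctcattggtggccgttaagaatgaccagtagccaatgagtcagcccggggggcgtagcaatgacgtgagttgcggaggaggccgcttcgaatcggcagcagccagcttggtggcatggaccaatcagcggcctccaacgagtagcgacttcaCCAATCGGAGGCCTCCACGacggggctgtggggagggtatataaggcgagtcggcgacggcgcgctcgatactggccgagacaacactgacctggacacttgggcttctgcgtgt
The motifs were searched on both strands. GAANNTTC occurred in 7.86% of 32851 mouse promoters of this length, and the other arrangement of the pair, TTCNNGAA, in 8.52%. Hspb1 held GAANNTTC at 117 and again at 97 bases before the start, and Hspa1a and Hspa1b held it once each, at 104 bases. The Hspa5 element, starting 65 bases before the start, occurred in 39 promoters (0.119%). Neither Dnajb1 promoter held any of these letter strings. The Hspa1a and Hspa1b promoters were identical at 296 of 300 positions. The motifs are matches of letters and say nothing of binding in these cells.

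Cryab (ENSMUSG00000032060; GRCm38 chromosome 9, 50751325 to 50756636, plus strand, 4 exons), which encodes the small heat shock protein alpha B-crystallin, was higher in astroglia-like cells of both mutants, and had the largest log2 ratio of the 9 members in the hGFAP-Cre mutant. It reached 359.3 CPM (351 to 367; 7954 UMIs) in the hGFAP-Cre mutant and 52.2 CPM (48.8 to 55.8; 874 UMIs) in the Emx1-Cre mutant, against 14.9 CPM (13.2 to 16.8; 277 UMIs) in the control. None of the 3 intervals overlapped. The log2 ratio was 4.19 for the hGFAP-Cre mutant and 1.52 for the Emx1-Cre mutant, where the median gene of the class was at -0.076 and -0.30. Both values lean on cluster 4, described with the other clusters, since without it they were 2.59 and 0.52. The Emx1-Cre value was also below 1.5-fold with at least 2000 genes per cell, at 0.071, and with under 5% mitochondrial counts, at 0.56. Of the 9 genes, 1 was called higher and 1 lower in the hGFAP-Cre mutant, beside 10.9% and 12.8% of the 8984 genes counted. In the Emx1-Cre mutant 1 was called higher and 0 lower, beside 9.38% and 30.2% of 8855 genes. In each mutant 3 members stayed below 10 CPM and were not counted.

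With each cell thinned to 2000 UMIs, 27.8% of hGFAP-Cre (26.2% to 29.4%), 6.19% of Emx1-Cre (5.19% to 7.32%) and 2.10% of control astroglia-like cells (1.53% to 2.81%) had a Cryab UMI. Unthinned, the shares were 48.0%, 14.2% and 8.10%, at medians of 6038, 7449 and 7890 UMIs per cell. Microglia, which are not known for Cryab, give the background: 1.34% of 298 hGFAP-Cre, 0 of 232 Emx1-Cre (up to 1.58%) and 0.830% of 241 control cells after thinning, at medians of 6517, 4777.5 and 11162 UMIs before it. The control astroglia interval of these shares overlaps that of control microglia. In CPM the control astroglia interval, 13.2 to 16.8, lay above that of control microglia, 4.45 to 11.0. Cryab was unevenly spread over cells, since the top 10% of hGFAP-Cre astroglia-like cells held 63.6% of its UMIs and the highest cell had 78, against 12 in the highest control cell.

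**Figure D1:**
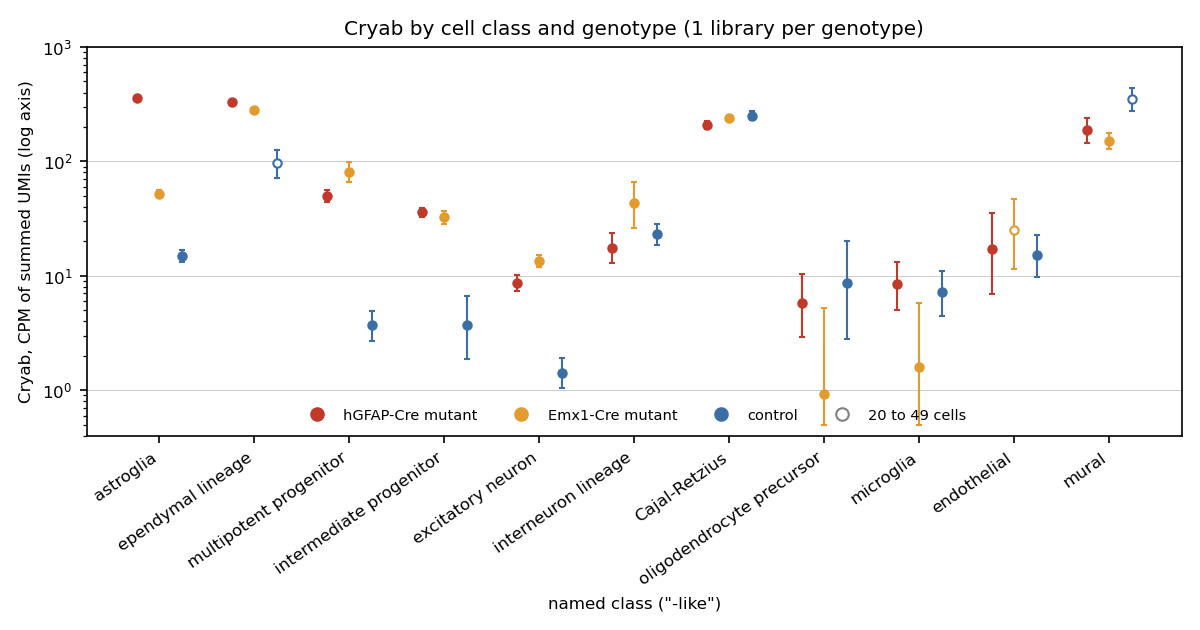
Cryab level (CPM of UMIs summed per class and library, log axis) in 11 named classes, for the hGFAP-Cre mutant, the Emx1-Cre mutant and the control; bars are exact Poisson 95% intervals, limits below 0.5 CPM are drawn at 0.5, and open points stand for 20 to 49 cells. The mutants lie above the control in astroglia, multipotent progenitors, intermediate progenitors and excitatory neurons, while the 3 libraries lie between 207 and 251 CPM in Cajal-Retzius-like cells.

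Cryab was also higher in 2 progenitor classes of both mutants, and in excitatory neuron-like cells of the Emx1-Cre mutant. Among multipotent progenitor-like cells, named from markers such as Egfr and Olig2, it was at 50.01 CPM (44.1 to 56.5) in the hGFAP-Cre mutant and 81.5 CPM (66.2 to 99.2) in the Emx1-Cre mutant, against 3.68 CPM (2.68 to 4.92) in the control. The log2 ratios were 2.66 and 3.32, beside 8.26% and 11.4% of genes called higher. Cells like intermediate progenitors, with Eomes and Neurog2, had 36.0 CPM (32.9 to 39.2) and 32.3 CPM (28.1 to 37.0) in the hGFAP-Cre and Emx1-Cre mutants, against 3.74 CPM (1.87 to 6.69) in the control. There the log2 ratios were 2.23 and 2.10, beside 7.1% and 6.61% of genes. In both classes the mutant intervals lay wholly above the control's. The multipotent class is not made of like cells in the 3 libraries. Cluster 12, whose leading genes are histone and cell cycle genes, held 407 of its 538 cells in the hGFAP-Cre mutant, 153 of its 159 in the Emx1-Cre mutant and 530 of its 949 in the control, and the remaining 419 control cells were in cluster 22.

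Few of these progenitors carried the transcript. After thinning, 2.79% of hGFAP-Cre, 2.50% of Emx1-Cre and 0.528% of control intermediate progenitor-like cells had a Cryab UMI, and 7.25%, 2.52% and 1.37% of multipotent progenitor-like cells. Excitatory neuron-like cells had 8.63 CPM (7.29 to 10.1) and 13.6 CPM (11.98 to 15.3) in the hGFAP-Cre and Emx1-Cre mutants, against 1.42 CPM (1.03 to 1.91) in the control. The hGFAP-Cre neurons stayed below 10 CPM, so no call was made, and lay within the interval of hGFAP-Cre microglia, 8.41 CPM (4.98 to 13.3). Their interval lay above that of control neurons, which in turn lay below that of control microglia. Microglia thus give no clear background for neurons, and whether the hGFAP-Cre value is background was not tested. In Emx1-Cre microglia Cryab was at 1.60 CPM (0.194 to 5.79) and in control microglia at 7.19 CPM (4.45 to 11.0).

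3 classes had much Cryab in every library. Cajal-Retzius-like cells, early neurons of the cortical surface, had 207 CPM (192 to 223) in the hGFAP-Cre mutant and 237 CPM (227 to 247) in the Emx1-Cre mutant, against 251 CPM (230 to 273) in the control. The Emx1-Cre and control intervals overlapped. Ependymal lineage-like cells, which form the ciliated lining of the ventricles, had 327 CPM (312 to 343) and 281 CPM (272 to 291) in the hGFAP-Cre and Emx1-Cre mutants, against 96.2 CPM (71.9 to 126) in 32 control cells. Mural-like cells, which wrap vessels, had 188 CPM (144 to 241) and 151 CPM (127 to 177) in the hGFAP-Cre and Emx1-Cre mutants, against 350 CPM (278 to 436) in 36 control cells. The last 2 classes fell short of 50 control cells, and no ratio is given.

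In the other classes Cryab was low. Interneuron lineage-like cells had 17.6 CPM (12.9 to 23.5) and 42.9 CPM (26.2 to 66.3) in the hGFAP-Cre and Emx1-Cre mutants, against 23.1 CPM (18.5 to 28.4) in the control, and each mutant interval overlapped the control's. Oligodendrocyte precursor-like cells had 5.83 and 0.934 CPM against 8.69 CPM in the control, on 11, 1 and 5 UMIs, with intervals that overlap those of microglia. Endothelial-like cells had 17.3, 24.9 and 15.2 CPM in the hGFAP-Cre mutant, the Emx1-Cre mutant and the control, also with overlapping intervals. Of the classes with 50 cells in both libraries, Cryab was called higher in 3 of 9 in the hGFAP-Cre mutant and 5 of 8 in the Emx1-Cre mutant, and lower in 0 of either. Beside astroglia and both progenitor classes, the Emx1-Cre calls were in excitatory neurons, where 6.94% of genes were called higher, and interneurons, where 12.9% were.

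Because class makeup differed, Cryab was compared within single clusters, which were built without the 9 genes. Cluster 4, led by Prm1 and with Gfap, S100a6, Clu, Phlda3 and Cryab itself among its 10 leading genes, had the most Cryab of the astroglia clusters with at least 20 cells: 532 CPM (520 to 544) in 1914 hGFAP-Cre cells and 642 CPM (590 to 697) in 151 Emx1-Cre cells, against 312 CPM (238 to 400) in 20 control cells. Its Emx1-Cre cells were low in the 12 astroglia markers, at 4142.1 CPM, against 17004 CPM in its hGFAP-Cre cells and 19048 CPM in its control cells. Ependymal markers were at 1068.3 CPM in its Emx1-Cre cells, 497.7 CPM in its hGFAP-Cre cells and 924.5 CPM in its 20 control cells. The 151 Emx1-Cre cells gave 572 of the 874 Cryab UMIs of Emx1-Cre astroglia. The Emx1-Cre call in astroglia-like cells, lost without cluster 4, rests on these cells.

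Cluster 2, led by Has2, Tnc and Id3, had 148 CPM (132 to 165) in 183 hGFAP-Cre cells and 18.6 CPM (16.5 to 20.9) in 1878 Emx1-Cre cells, against 3.39 CPM (1.46 to 6.68) in 180 control cells. All 3 intervals lay apart, with both mutants above the control. Cluster 13 had 80.4 CPM (73.5 to 87.9) in 1048 hGFAP-Cre cells, against 27.5 CPM (8.93 to 64.2) in 24 control cells. Cluster 10 had 34.2 CPM (18.2 to 58.4) in 58 hGFAP-Cre cells, against 15.3 CPM (13.0 to 17.9) in 1391 control cells. In the dividing cluster 19 of intermediate progenitors, led by Cenpa and Ube2c, Cryab was at 120 CPM (108 to 132) in the hGFAP-Cre mutant and 109 CPM (92.3 to 128) in the Emx1-Cre mutant, against 9.35 CPM (3.76 to 19.3) in the control. Its 7 control UMIs came from 1 cell of 72. The dividing cluster 12 of multipotent progenitors had 38.5 CPM (32.8 to 44.8) and 83.5 CPM (67.9 to 102) in the hGFAP-Cre and Emx1-Cre mutants, against 2.89 CPM (1.85 to 4.30) in the control. The cells of cluster 12 differed in their markers too. Astroglia markers summed to 2319.8 and 1261.4 CPM in its hGFAP-Cre and Emx1-Cre cells, against 11905 CPM in its control cells, and intermediate progenitor markers to 1017 and 1204 CPM, against 470 CPM in the control. Ependymal markers summed to 16.2 and 59.9 CPM in its hGFAP-Cre and Emx1-Cre cells, against 6.63 CPM in its control cells. In cluster 19 ependymal markers summed to 63.2 and 101.8 CPM in the hGFAP-Cre and Emx1-Cre mutants, against 12.02 CPM in the control. Astroglia markers there summed to 2438.8 and 728.7 CPM, against 2105.1 CPM, and intermediate progenitor markers to 1556.9 and 1521.9 CPM, against 1430.6 CPM. The part of these marker differences in the Cryab differences of clusters 12 and 19 was not tested. Over clusters with at least 20 cells in both libraries, Cryab was at least 1.5-fold higher in 15 of 23 in the hGFAP-Cre mutant and 14 of 20 in the Emx1-Cre mutant, and lower by as much in 1 and 3. This tally used no floor of 10 CPM, so it takes in clusters with low Cryab. The share of all genes past 1.5-fold was not computed for single clusters.

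**Figure D2:**
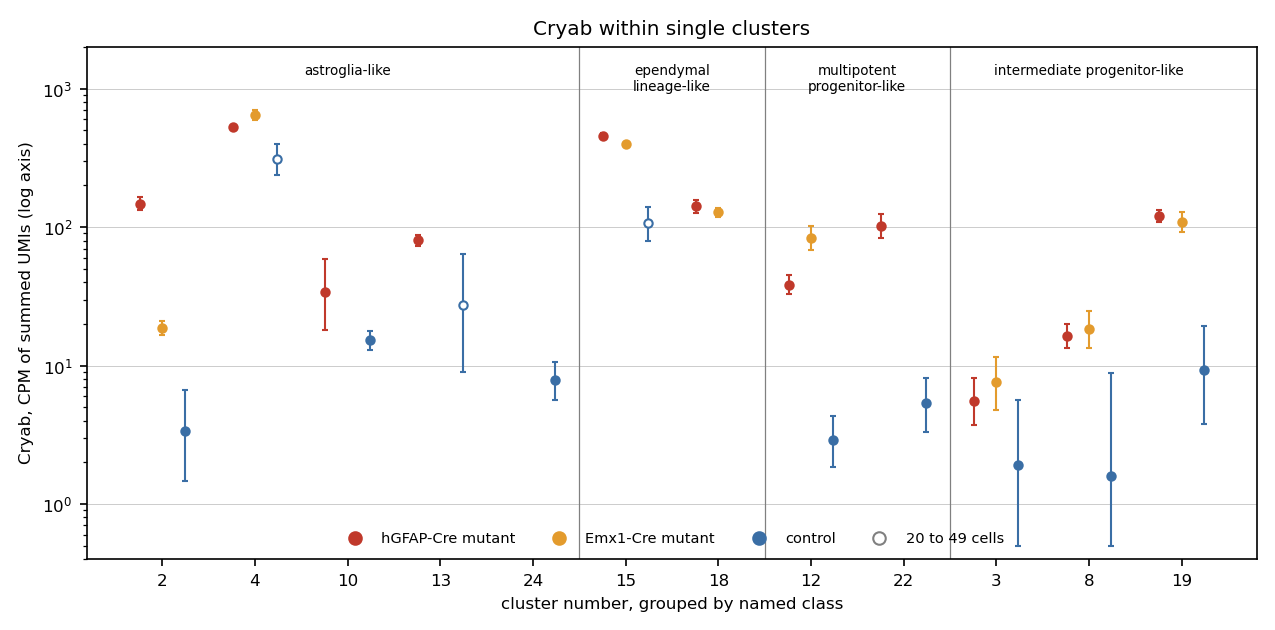
Cryab level (CPM, log axis) in the single clusters of 4 classes (astroglia, ependymal lineage, multipotent and intermediate progenitors), with exact Poisson 95% intervals; clusters and libraries with under 20 cells are not drawn, open points stand for 20 to 49 cells, and limits below 0.5 CPM are drawn at 0.5. In the clusters of these 4 classes with a control point and a mutant point, mutant points lie higher, although in some, such as cluster 3, intervals overlap; in Cajal-Retzius and mural cells, not drawn here, the control was higher.

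Within astroglia-like cells, Cryab was higher in cells with ependymal marker genes. Cells with a UMI of Foxj1, Rsph1, Tmem212 or Ccdc153 had 598 CPM in the hGFAP-Cre mutant and 229 CPM in the Emx1-Cre mutant, against 65.1 CPM in the control. Cells with none of these had 156 CPM (149 to 164) and 21.0 CPM (18.7 to 23.5) in the hGFAP-Cre and Emx1-Cre mutants, against 10.4 CPM (8.91 to 12.03) in the control, and the 3 libraries kept the same order. Gfap, the intermediate filament gene of astrocytes, split the class too, with 481 CPM of Cryab in cells with a Gfap UMI and 182 CPM in those without in the hGFAP-Cre mutant, 175 and 13.1 CPM in the Emx1-Cre mutant, and 16.9 and 12.6 CPM in the control. Cdkn1a, the p53 target that encodes the cell cycle inhibitor p21, was at 425 CPM in hGFAP-Cre, 34.4 CPM in Emx1-Cre and 10.6 CPM in control astroglia. Cryab in the hGFAP-Cre mutant was 352 CPM in cells with a Cdkn1a UMI and 367 CPM in cells without one. UMIs assigned to Prm1 were at 1752.4 CPM in hGFAP-Cre astroglia and at 0 in Emx1-Cre and control astroglia. Prm1 is a sperm gene whose end is also used as the polyadenylation signal of some transgenes, and in 3' counts the gene and such a transgene cannot be told apart, so this value is not read as expression of Prm1. hGFAP-Cre cells with no Prm1 UMI still had 123 CPM of Cryab (103 to 145), against 372 CPM in those with one. The part of Prm1 and of ependymal genes in the Cryab difference was not tested.

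Over all kept cells Cryab was at 149 CPM (146 to 152) in the hGFAP-Cre mutant and 97.4 CPM (95.2 to 99.7) in the Emx1-Cre mutant, against 15.2 CPM (14.3 to 16.1) in the control. Astroglia gave 69.1% of its UMIs in the hGFAP-Cre mutant, ependymal cells 47.2% in the Emx1-Cre mutant and Cajal-Retzius cells 44.8% in the control. The log2 ratios were 2.93 and 2.34, beside 9.24% and 11.5% of genes called higher, and when each class was given its control share of UMIs they were 2.50 and 1.27.

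Hspb2, the small heat shock protein gene next to Cryab, runs on the opposite strand, and the 2 gene models overlap by 1030 bases while their annotated 3' ends lie 5558 bases apart. Whether the counting used strand is not given in the sources used here, so its counts are uncertain. In astroglia-like cells it was at 10.7 CPM (9.34 to 12.1; 236 UMIs) in the hGFAP-Cre mutant and 1.43 CPM (0.918 to 2.13; 24 UMIs) in the Emx1-Cre mutant, against 0.269 CPM (0.0874 to 0.628; 5 UMIs) in the control. It was thus ordered as Cryab was. Hspb8, a small heat shock protein that works with BAG3, was at 9.22 CPM in the hGFAP-Cre mutant and 13.1 CPM in the Emx1-Cre mutant, against 1.45 CPM in the control. Hspb6 was at 11.0 CPM in the hGFAP-Cre mutant against 8.82 CPM in the control. Of the 6 other small heat shock protein genes, 2 were counted and 1 (Hspb2) was higher in the hGFAP-Cre mutant, and 1 was counted and higher (Hspb8) in the Emx1-Cre mutant.

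Hspb1 (ENSMUSG00000004951; chromosome 5, 135887919 to 135889563, plus strand, 2 exons) encodes HSP25, which also protects the actin skeleton. Its level was highest in vessel cells: endothelial-like cells had 160 CPM (124 to 204) in the hGFAP-Cre mutant and 163 CPM (124 to 210) in 46 Emx1-Cre cells, against 233 CPM (210 to 258) in the control. Mural-like cells had 129, 96.1 and 78.9 CPM in the hGFAP-Cre mutant, the Emx1-Cre mutant and the control, with overlapping intervals. Endothelial cells gave 89.3% of its UMIs in the control, but astroglia gave the largest share in the hGFAP-Cre mutant, 43.3%, and ependymal cells in the Emx1-Cre mutant, 47.2%. In astroglia-like cells it stayed below 10 CPM, at 5.51 CPM (4.58 to 6.58; 122 UMIs) and 5.31 CPM (4.27 to 6.54; 89 UMIs) in the hGFAP-Cre and Emx1-Cre mutants, against 0.592 CPM (0.295 to 1.06; 11 UMIs) in the control. The mutant intervals lay above the control's. Within cluster 2 it was at 26.4 CPM (20.1 to 34.1) in hGFAP-Cre and 4.95 CPM (3.92 to 6.18) in Emx1-Cre cells, against 0 UMIs in the 180 control cells (interval up to 1.56 CPM). The ependymal cluster 18, led by Tmem212 and Ccdc153, had 33.7 CPM in the Emx1-Cre mutant and 7.65 CPM in the hGFAP-Cre mutant. Of the 50-base words in the last 600 bases of the Hspb1 transcript 31.2% also occur in transcripts of other genes, so some of its reads may have been lost or split.

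Hspa1a (ENSMUSG00000091971; chromosome 17, 34969190 to 34972156, minus strand) and Hspa1b (ENSMUSG00000090877; chromosome 17, 34956436 to 34959238, minus strand), single-exon genes for the stress-inducible HSP70, were low in neural cells of all 3 libraries. No 50-base word of their last 600 bases occurred in another gene, so these ends tell the pair apart. Summed over both, astroglia-like cells had 2.03 CPM (1.48 to 2.72), 1.73 CPM (1.16 to 2.49) and 1.78 CPM (1.22 to 2.49) in the hGFAP-Cre mutant, the Emx1-Cre mutant and the control. These intervals overlapped. The highest class was mural-like, with summed levels of 52.4 CPM (30.5 to 83.9) and 71.3 CPM (55.5 to 90.2) in the hGFAP-Cre and Emx1-Cre mutants, against 136 CPM (92.3 to 193) in 36 control cells. Microglia-like cells had 16.4 CPM (11.4 to 22.7) and 5.61 CPM (2.26 to 11.6), against 6.5 CPM (3.92 to 10.2) in the control. Hspa1a alone was called higher there in the hGFAP-Cre mutant, on 24 against 12 UMIs, beside 10.1% of genes.

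Hspa8 (ENSMUSG00000015656; chromosome 9, 40800984 to 40810087, plus strand), the constitutive HSP70 that also uncoats clathrin vesicles, was lower in both mutants in every class with 50 cells in both libraries, 9 of 9 and 8 of 8. The ratio of the median gene was also below 0 in each of these classes. In astroglia-like cells Hspa8 was at 892 CPM (879 to 904) in the hGFAP-Cre mutant and 870 CPM (856 to 885) in the Emx1-Cre mutant, against 1215.8 CPM in the control. The log2 ratios were -0.45 and -0.48, where the median gene was at -0.076 and -0.30. Microglia-like cells, which arise outside the neural lineage, had 870 CPM (830 to 910) and 933 CPM (880 to 988) in the hGFAP-Cre and Emx1-Cre mutants, against 1439.5 CPM in the control. The log2 ratios there were -0.72 and -0.62, where the median gene was at -0.080 and -0.245. Cajal-Retzius-like cells had 1326.2 and 1214.5 CPM in the hGFAP-Cre and Emx1-Cre mutants, against 2066.3 CPM in the control. There 3 members were called lower in each mutant, beside 15.7% and 15% of genes: Hspa5 and Hspa8 in both, Hsp90aa1 in the hGFAP-Cre mutant and Dnajb1 in the Emx1-Cre mutant. Past 1.5-fold, Hspa8 was lower in 4 classes in each mutant. In those classes 15.7% to 21.4% of genes were called lower in the hGFAP-Cre mutant and 15% to 29.2% in the Emx1-Cre mutant. Of the 50-base words at its 3' end 41.6% occur in other genes, so its level is uncertain.

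**Figure D3:**
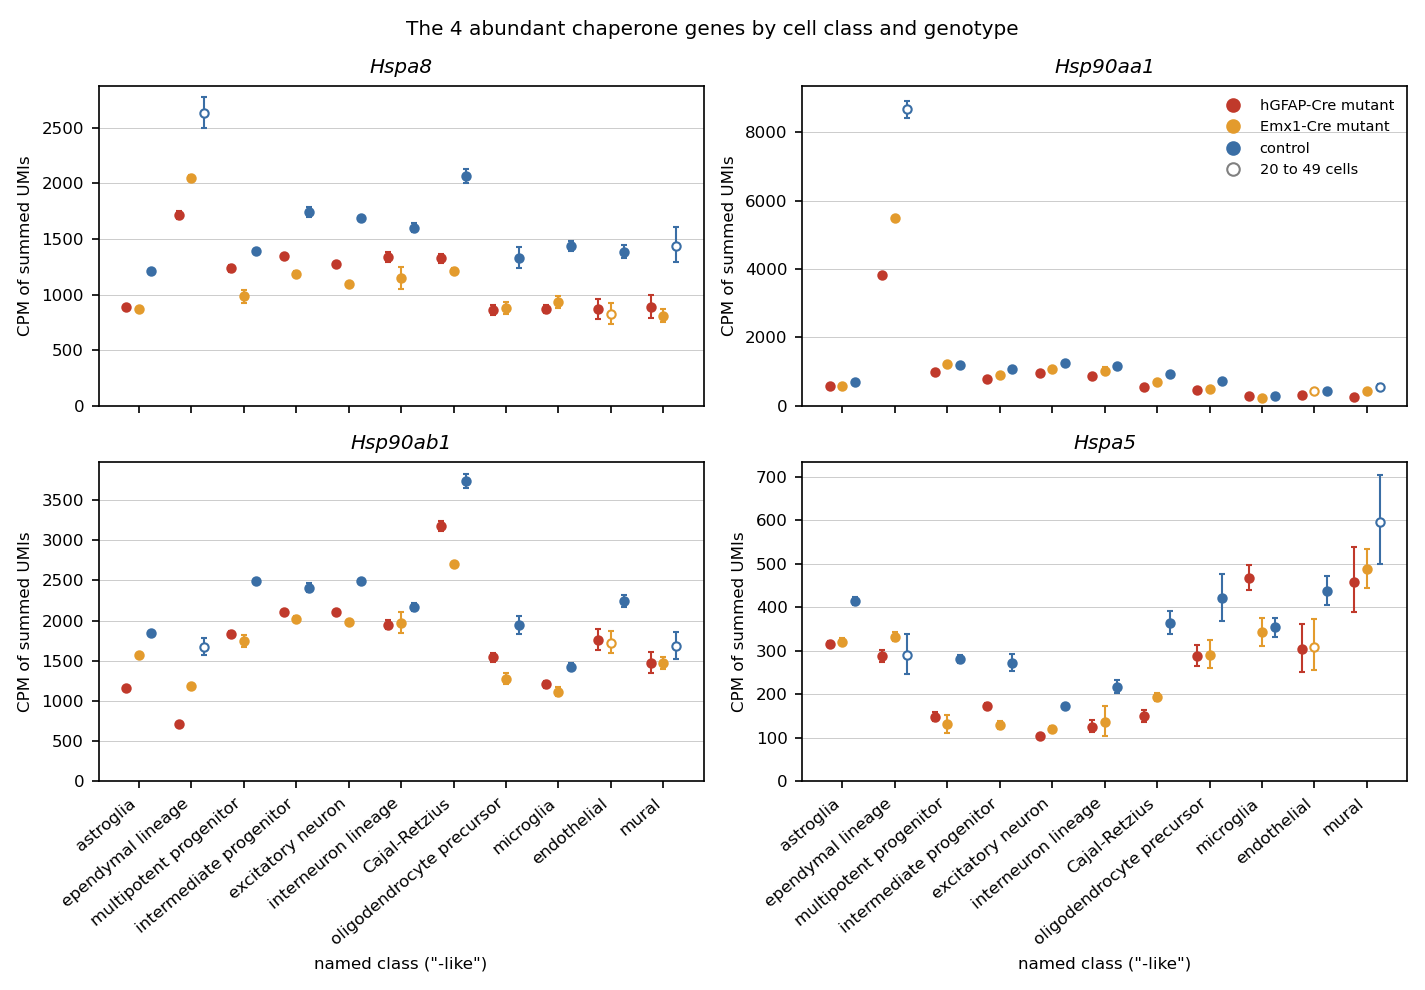
Levels of Hspa8, Hsp90aa1, Hsp90ab1 and Hspa5 (CPM of summed UMIs, linear axes from 0) by class for the hGFAP-Cre mutant, the Emx1-Cre mutant and the control, with exact Poisson 95% intervals and open points for 20 to 49 cells. Control points lie above both mutants for Hspa8 in every class, Hsp90aa1 is far higher in ependymal cells than elsewhere in all 3 libraries, and Hsp90ab1 is highest in Cajal-Retzius cells.

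Hsp90aa1 (ENSMUSG00000021270; chromosome 12, 110690605 to 110702728, minus strand), the more inducible cytosolic HSP90, marked the ependymal lineage in each library. It was at 3830 CPM in the hGFAP-Cre mutant and 5505.8 CPM in the Emx1-Cre mutant, against 8672 CPM in 32 control cells. In both mutants cluster 15, with Myb and Foxj1 among its leading genes, had more than cluster 18, with 4620.1 and 2694.6 CPM in the hGFAP-Cre mutant and 6406 and 4313 CPM in the Emx1-Cre mutant. Over all kept cells it was at 957 CPM in the hGFAP-Cre mutant and 1586.6 CPM in the Emx1-Cre mutant, against 1078.8 CPM in the control. Ependymal cells supplied 66388 of the 116887 Emx1-Cre UMIs, and with each class at its control share the Emx1-Cre log2 ratio was -0.20 in place of 0.55. In astroglia-like cells the levels were 567 CPM (557 to 577) and 585 CPM (573 to 596) in the hGFAP-Cre and Emx1-Cre mutants, against 702 CPM (690 to 714) in the control. Scaled by the median ratio of all genes, the Emx1-Cre log2 ratio there turned to 0.039.

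Hsp90ab1 (ENSMUSG00000023944; chromosome 17, 45567775 to 45573271, minus strand), the constitutive cytosolic HSP90, was the 1 member called lower in hGFAP-Cre astroglia. It was at 1157.5 CPM there and 1575.3 CPM in Emx1-Cre astroglia, against 1850.1 CPM in the control, log2 ratios of -0.67 and -0.23. Scaled by the median ratio of all genes, the Emx1-Cre value turned to 0.071. Cajal-Retzius-like cells had the most in each library, 3174.5, 2700 and 3739.6 CPM. Ependymal lineage-like cells had the least in the hGFAP-Cre mutant, 708 CPM, against 1674.7 CPM in 32 control cells.

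Hspa5 (ENSMUSG00000026864; chromosome 2, 34771970 to 34777547, plus strand, 9 exons) encodes BiP, the HSP70 of the endoplasmic reticulum. In astroglia-like cells it was at 316 CPM (308 to 323) in the hGFAP-Cre mutant and 321 CPM (313 to 330) in the Emx1-Cre mutant, against 415 CPM (405 to 424) in the control. The log2 ratios were -0.39 and -0.36, where the median gene was at -0.076 and -0.30. Multipotent progenitor-like cells had 149 CPM (138 to 160) and 131 CPM (111 to 153) in the hGFAP-Cre and Emx1-Cre mutants, against 281 CPM (271 to 290) in the control, where 16.4% and 23.1% of genes were called lower. Cajal-Retzius-like cells had 149 CPM (137 to 163) and 193 CPM (184 to 203), against 365 CPM (340 to 391.7) in the control. Hspa5 was called lower in 5 of 9 classes in the hGFAP-Cre mutant and 4 of 8 in the Emx1-Cre mutant, and in microglia-like cells it was at 467 CPM (439 to 497) and 342 CPM (311 to 376), against 354 CPM (333 to 376) in the control. The unnamed cluster 28, 32 hGFAP-Cre cells and 2 Emx1-Cre cells led by Gdf15 and Cxcl10, had 803 CPM (675 to 949) in the hGFAP-Cre mutant.

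Dnajb1 (ENSMUSG00000005483; chromosome 8, 83608193 to 83612653, plus strand) encodes the J-domain partner that hands proteins to HSP70. In astroglia-like cells it was at 30.7 CPM (28.4 to 33.1) in the hGFAP-Cre mutant and 24.6 CPM (22.3 to 27.1) in the Emx1-Cre mutant, against 38.7 CPM (35.9 to 41.6) in the control. It was highest in vessel cells, with 108, 70.3 and 92.0 CPM in mural-like and 98.6, 63.6 and 80.3 CPM in endothelial-like cells of the hGFAP-Cre mutant, the Emx1-Cre mutant and the control. Its ratio was below 0 in 8 of 9 classes in the hGFAP-Cre mutant and 8 of 8 in the Emx1-Cre mutant. The ratio of the median gene was below 0 in all of these classes too.

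Counted by class, the members other than Cryab were more often lower than higher in the mutants, as were the genes at large. In excitatory neuron-like cells 0 members were called higher and 1 lower (Hspa5) in the hGFAP-Cre mutant, beside 4.63% and 11.6% of genes, and 1 higher (Cryab) and 1 lower (Hspa8) in the Emx1-Cre mutant, beside 6.94% and 22.2%. In interneuron lineage-like cells 0 were higher and 1 lower (Hspa5) in the hGFAP-Cre mutant, beside 7.18% and 14.7%, and 1 higher (Cryab) and 1 lower (Hspa5) in the Emx1-Cre mutant, beside 12.9% and 19.4%. In intermediate progenitor-like cells Hspa5 was called lower in both, beside 13.4% and 18.5% of genes. Oligodendrocyte precursor-like cells had 0 higher and 2 lower in each mutant, Hspa8 and Hsp90aa1 in the hGFAP-Cre mutant, beside 11.1% and 21.4%, and Hspa8 and Hsp90ab1 in the Emx1-Cre mutant, beside 13.2% and 21.6%. In microglia-like cells 1 was higher and 1 lower in the hGFAP-Cre mutant, beside 10.1% and 16.5%, and 0 higher and 2 lower in the Emx1-Cre mutant, beside 10.2% and 29.2%. Cajal-Retzius-like cells had no member called higher, beside 5% and 5.32% of genes in the hGFAP-Cre and Emx1-Cre mutants. In endothelial-like cells of the hGFAP-Cre mutant 0 were higher and 2 lower, Hspa8 and, on 2 against 17 UMIs, Hspa1b, beside 15.5% and 16.7%.

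**Figure D4:**
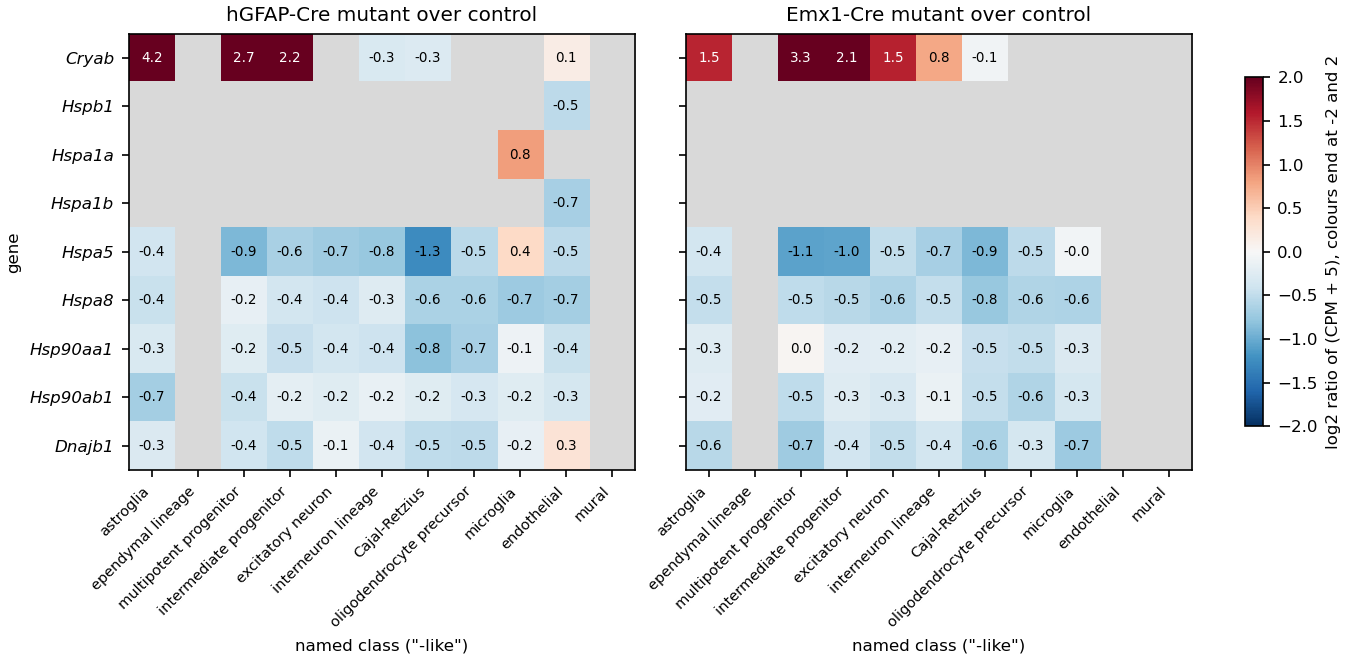
Log2 ratio of hGFAP-Cre mutant over control (left) and Emx1-Cre mutant over control (right) for each member (rows) and named class (columns), from CPM with 5 added; colours end at -2 and 2, and grey marks a member below 10 CPM in both libraries or a class with under 50 cells in either. Cryab is the row with the high values, up to 4.19, and most other values are below 0; those of Hsp90aa1 and Hsp90ab1 in Emx1-Cre astroglia turn above 0 when scaled by the median ratio of all genes.

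Genes of the wider chaperone network were described by lists, in astroglia-like cells. Their counts stand beside 10.9% of all genes called higher and 12.8% lower in the hGFAP-Cre mutant, and 9.38% higher and 30.2% lower in the Emx1-Cre mutant. Of 17 counted genes of the HSP70 and HSP40 machinery, 1 was higher and 2 lower in the hGFAP-Cre mutant (median log2 ratio 0.014). In the Emx1-Cre mutant 0 were higher and 4 lower (median -0.17). The higher one was Hspa2, an HSP70 best known from testis, with 130 CPM in the hGFAP-Cre mutant against 21.3 CPM in the control. Lower in both mutants were Hsph1, an HSP70 nucleotide exchange factor, with 33.1 and 29.0 CPM against 54.8 CPM in the control, and St13, the HSP70 partner HIP, with 303 and 240 CPM against 460 CPM. St13 passed 1.5-fold in each mutant, and so did Hsph1. Dnajb2 and Hspa4l were lower in the Emx1-Cre mutant, by log2 ratios of -1.31 and -1.17.

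Of the HSP90 co-chaperones, 1 of 9 was higher and 1 lower in the hGFAP-Cre mutant (median -0.086). In the Emx1-Cre mutant 1 of 10 was higher and 2 lower (median -0.095). Of all genes, 10.9% were higher and 12.8% lower in the hGFAP-Cre mutant, and 9.38% and 30.2% in the Emx1-Cre mutant. Ptges3, the co-chaperone p23, was higher in both, at 491 and 479 CPM against 317 CPM in the control. Ppid was lower in the hGFAP-Cre mutant (72.2 against 111 CPM), and Fkbp4 (138 against 217 CPM) and Chordc1 (21.3 against 38.0 CPM) in the Emx1-Cre mutant. Of 11 mitochondrial chaperone and chaperonin ring genes, 0 were higher and 0 lower in the hGFAP-Cre mutant (median -0.18), and 1, Hspe1, was higher in the Emx1-Cre mutant (median 0.073), at 1204.5 CPM against 748 CPM. None of 3 counted heat shock factor genes passed 1.5-fold in either mutant (medians 0.16 and -0.20). Hsf1, the main factor of the heat shock response, was at 10.9 and 8.66 CPM in the hGFAP-Cre and Emx1-Cre mutants, against 15.2 CPM in the control.

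Of 17 genes of the endoplasmic reticulum and its unfolded protein response, 0 were higher and 2 lower in the hGFAP-Cre mutant (median -0.019), and 1 was higher and 4 lower in the Emx1-Cre mutant (median -0.16), beside 12.8% and 30.2% of all genes called lower. Calr, a calcium-binding chaperone, was lower in the hGFAP-Cre mutant, with 163 CPM against 386 CPM in the control. Xbp1, a transcription factor of the response, was lower in both, with 30.4 and 26.7 CPM against 64.8 CPM in the control. Herpud1 was lower and Sdf2l1 higher in the Emx1-Cre mutant, by log2 ratios of -1.14 and 0.84. Of the integrated stress response list, 1 of 5 was higher and 1 lower in the hGFAP-Cre mutant (median -0.36), and 0 of 4 higher and 2 lower in the Emx1-Cre mutant (median -0.68). Atf5 was lower in both, with 25.1 and 24.6 CPM against 52.0 CPM in the control, and Sesn2, which is also a p53 target, was higher in the hGFAP-Cre mutant, with 11.8 CPM against 2.80 CPM.

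Beside 10.9% of all genes higher and 12.8% lower in the hGFAP-Cre mutant, and 9.38% and 30.2% in the Emx1-Cre mutant, the last 4 lists gave these counts. Of all the lists, the p53 targets had the highest median in the hGFAP-Cre mutant. There 8 of 10 counted genes were higher and 0 lower, with a median log2 ratio of 1.38, and in the Emx1-Cre mutant 3 of 9 were higher and 2 lower, with a median of 0.20. Beside Cdkn1a, Phlda3 was at 248 and 151 CPM in the hGFAP-Cre and Emx1-Cre mutants, against 23.1 CPM in the control. Of 16 immediate early and dissociation genes, 2 were higher and 8 lower in the hGFAP-Cre mutant (median -0.59), and 3 higher and 6 lower in the Emx1-Cre mutant (median -0.26). Egr1, a gene that ERK is known to switch on, was at 28.2 and 338 CPM in the hGFAP-Cre and Emx1-Cre mutants, against 599 CPM in the control. Jun was at 723 and 314 CPM, against 952 CPM in the control. Of the NRF2 targets, 2 of 6 were higher in the hGFAP-Cre mutant (median 0.44) and 3 of 7 higher and 1 lower in the Emx1-Cre mutant (median 0.41), with Hmox1 at 28.6 and 20.7 CPM, against 5.38 CPM in the control. Of the reactive glia list, 3 of 4 were higher in the hGFAP-Cre mutant (median 0.80), led by S100a6 with 806 CPM against 114 CPM in the control. For Emx1-Cre astroglia 2 of 5 were higher (median 0.27), Cd44 and Timp1. The part of any of these genes in the chaperone values was not tested.

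Genes with the most similar level across 30 combinations of class and library were found among 11012 genes. These points share libraries and depth, so the correlations are descriptions. For Cryab they were Eif1 (Pearson's r of log2 CPM 0.82), Angptl2 (0.80), Cisd3 (0.79), Ufsp1 (0.78) and Tmem47 (0.77). Its r with the other 8 members lay between -0.18 and 0.30. Hspa5 was most like Hsp90b1, Rpn2 and Calr (0.88, 0.87 and 0.85), Hsp90aa1 like Hsph1, St7 and Ift81 (0.93, 0.92 and 0.91), and Hspb1 like Cgnl1, Col4a2 and Igfbp7 (each 0.96). For Hspa1a they were Rrad, Enpp1 and Ripk3 (0.86, 0.85 and 0.85), for Hspa1b Col3a1, Ecm2 and Tbxa2r (each 0.93), and for Dnajb1 Map2k3, Actn4 and Ets1 (0.86, 0.85 and 0.85). Hspa8 was most like Chkb, Rrp1 and Tecpr2 (0.81, 0.80 and 0.80), and Hsp90ab1 like Sars, Klc1 and Chd3 (0.90, 0.88 and 0.87).

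Thinned to 2000 UMIs, 891 hGFAP-Cre astroglia-like cells had a Cryab UMI and 2317 had none. Hspa5 was found in 47.9% of the cells with Cryab (44.6% to 51.3%) and 38.1% of those without (36.1% to 40.1%). Hsp90aa1 was found in 66.1% (62.9% to 69.2%) of those with Cryab and 59.7% (57.7% to 61.7%) of those without. For both genes the intervals did not overlap. Dnajb1 was found in 5.61% and 6.17%, with overlapping intervals, and Hspa1a and Hspa1b in at most 0.337% of either. The other libraries did not show this for Hspa5, found in 42.5% of 127 Emx1-Cre cells with Cryab (33.8% to 51.6%) and 44.7% of those without, and in 40.9% of 44 control cells with Cryab (26.3% to 56.8%) and 51.8% of those without. Hsp90aa1 was found in 72.4% and 64.0% of Emx1-Cre cells with and without Cryab, and in 79.5% and 70.7% of control cells, with overlapping intervals. The intervals cover counting error only.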

How the data were processed

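Single-cell RNA was measured in 3 droplet libraries, 1 per genotype. The deposited files hold raw UMI counts per gene and barcode, made with Cell Ranger 5.0.0 per the file headers, on mm10 per the submitters' processing notes. Kept barcodes had 1000 genes or more and a mitochondrial share below 10%, and doublets called by Scrublet (expected 10%) were removed, 8.71% of the hGFAP-Cre, 7.64% of the Emx1-Cre and 4.44% of the control library. Cells of all libraries were clustered together with scanpy 1.11.5 and leidenalg 0.10.2, without batch correction, on 2000 variable genes (the 9 members left out), 30 principal components, 15 neighbours and resolution 1. A cluster could be named when at least 3 markers of a class had a mean 2-fold that of all other cells. Each also had to be found in 25% of its cells or more. It stayed unnamed when another class had more markers among its 10 leading genes. The same held when its cells had few UMIs and none of its own markers were among those genes. Names are therefore rebuilt ones. UMIs of each class in each library were added up and expressed as CPM. Ratios used 5 CPM as pseudocount and a fold of 1.5. Calls by class used a floor of 10 CPM and at least 50 cells per class and library. Counts over single clusters used at least 20 cells per cluster and library and no floor. Detection was compared after thinning cells to 2000 UMIs. Intervals are exact 95% Poisson for sums and exact Clopper-Pearson for shares, the limit for a count of 0 is the exact interval's upper bound, and all cover counting error only. Scripts were tested on simulated data.

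The members and lists were chosen with earlier results of these data known. Named from each list were up to 4 counted genes with the largest absolute log2 ratio in astroglia-like cells per mutant, and from all genes the 5 (Cryab) or 3 (each other member) with the highest correlation. Gene models are from GENCODE on GRCm38, the build of mm10, and promoters from RefSeq. Other alternatives were filters, doublets, resolution, scaling, thinning, pseudocount and cell subsets. Leaving out cluster 4 was chosen after seeing the data.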

Additional observations from a re-analysis of the deposited data

Results flagged for a closer look

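Over all kept cells 3 members had ratios of opposite sign in the mutants, and these differences were not tested. Hspb1 had a log2 ratio of -0.26 in the hGFAP-Cre mutant and 0.26 in the Emx1-Cre mutant. Hspa1b had -0.14 in the hGFAP-Cre mutant and 0.20 in the Emx1-Cre mutant, at levels under 3 CPM. Hsp90aa1 had -0.17 in the hGFAP-Cre mutant and 0.55 in the Emx1-Cre mutant, where ependymal cells made up 16.4% of all UMIs, against 0.699% of control UMIs.

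For 3 members the hGFAP-Cre ratio had the opposite sign in another class than in astroglia-like cells, again with no test of the difference. Cryab was at -0.27 in Cajal-Retzius-like cells, Hspb1 at -0.53 in endothelial-like cells and Hspa5 at 0.40 in microglia-like cells.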

How the results depend on the processing

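The Cryab log2 ratio in hGFAP-Cre astroglia-like cells, 4.19, stayed above 0 in all 11 alternatives. It was 2.63 with at least 2000 genes, 2.99 with under 5% mitochondrial counts, 3.17 with doublets kept, 3.20 at resolution 2, 3.98 thinned, 3.39 without ependymal UMIs, 4.50 and 3.44 with pseudocounts of 1 and 20 CPM, and 2.59 without cluster 4. The Emx1-Cre value, 1.52, was 0.071, 0.56, 0.65, 0.83, 1.93, 0.76, 1.74, 1.05 and 0.52 in the same order of settings, 1.80 with median scaling and 2.20 without Mki67 or Top2a UMIs. The cause was not tested. For the counts of called members that follow, the share of all genes called was not computed at these settings. With no filter on low values 2 members were called higher in each mutant. In the Emx1-Cre mutant 0 were called higher with at least 2000 genes, with under 5% mitochondrial counts and without cluster 4. In the hGFAP-Cre mutant 2 were called lower with at least 2000 genes, under 5% mitochondrial counts, doublets kept, resolution 2 and without cluster 4, and 0 at 2-fold. In the Emx1-Cre mutant 2 were called lower with at least 2000 genes and with doublets kept, and 1 with under 5% mitochondrial counts, resolution 2, thinning, no Mki67 or Top2a UMIs and a pseudocount of 1 CPM. Hspa8, Hspa5 and Dnajb1 stayed below 0 in both mutants in all 11 alternatives. Hspa5 in the Emx1-Cre mutant came as near to 0 as -0.064. Hspa1a and Hspa1b, under 2 CPM in astroglia, changed sign in some. With 1 library per genotype, library, sex and genotype cannot be told apart, and low genes are limited by counts. No paired analysis was possible because each genotype has 1 library.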
